A study of Mus musculus with 20 samples.

Results

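The 10 genes described here make up the core of the MHC class I pathway of antigen presentation in the mouse. They are the heavy chains H2-K1, H2-D1 and H2-T23, the light chain B2m, the peptide transporter genes Tap1 and Tap2, the loading factor Tapbp and the immunoproteasome subunits Psmb8, Psmb9 and Psmb10. Members were all probe sets, the groups of short probes that read a transcript on the array, whose only symbol in the probe-to-gene table was that of a listed gene. The rule found 16 probe sets for 9 of the 10 genes, among 12422 probe sets outside the controls, and all 16 passed the filter on dim signal. H2-T23 appeared only on probe sets that carry several symbols, so it has no value here, and 4 probe sets with several symbols that include a member were left out.

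Adult mice of the inbred strain C57BL/10SnJ gave the cells, which were sorted from their skeletal muscle and bone marrow. Each tissue gave a side population (SP), the cells that pump out the DNA dye Hoechst, and a main population (MP), the cells that hold it. Total RNA was measured on 20 Affymetrix arrays, 5 for each population of each tissue, and no treatment or allele is named for any group. The labels do not say whether the arrays of a group came from separate animals, pools or sorts, so the p-values rest on the spread among these samples alone, and that spread may be technical.

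MHC class I molecules display peptides from inside a cell to CD8 T cells and are read by receptors of natural killer (NK) cells. The proteasome cuts proteins into peptides, the TAP transporter (a dimer of the Tap1 and Tap2 products) moves them into the endoplasmic reticulum, and tapasin, the product of Tapbp, bridges TAP to a heavy chain paired with beta-2 microglobulin (B2m) while a peptide is fitted. Interferon gamma is the best known inducer of the pathway, and it exchanges the catalytic subunits Psmb5, Psmb6 and Psmb7 of the constitutive proteasome for Psmb8, Psmb9 and Psmb10. Nearly all nucleated cells carry class I, blood cells in large amounts and resting muscle fibres in small amounts.

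RefSeq windows of the bases before the gene starts (assembly GRCm38.p6) were available for 9 of the 10 members, Tap2 not among them. The stretches printed here are those that hold matches to response motifs in the genes the results turn on, and the DNA that Tap1 and Psmb9 share, because the RNAs of these neighbours differed in how they varied. Capitals mark the matches. In B2m the capitals are an interferon-stimulated response element (GAAA, 2 bases of any kind, GAAA) and, on the opposite strand, an NF-kappaB site (GGG, 2 bases of any kind, TT, 1 base of any kind, CC). In H2-K1 and H2-D1 they are the NF-kappaB site and, on the opposite strand, the shorter interferon motif GAANNGAAA. In Psmb8 they are TTCNNNGAA, a gamma-activated site, and in the stretch between Psmb9 and Tap1 the GC box GGGCGG on the opposite strand.
B2m (chr2:122147528-122147607, plus strand): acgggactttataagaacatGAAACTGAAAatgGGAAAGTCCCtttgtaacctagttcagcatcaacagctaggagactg
H2-K1 (chr17:34000429-34000458, minus strand): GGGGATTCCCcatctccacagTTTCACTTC
H2-D1 (chr17:35262923-35262952, plus strand): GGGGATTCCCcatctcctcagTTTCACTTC
Psmb8 (chr17:34198068-34198136, plus strand): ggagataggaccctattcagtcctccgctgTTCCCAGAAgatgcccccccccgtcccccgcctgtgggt
Psmb9 to Tap1 (chr17:34187331-34187555, plus strand): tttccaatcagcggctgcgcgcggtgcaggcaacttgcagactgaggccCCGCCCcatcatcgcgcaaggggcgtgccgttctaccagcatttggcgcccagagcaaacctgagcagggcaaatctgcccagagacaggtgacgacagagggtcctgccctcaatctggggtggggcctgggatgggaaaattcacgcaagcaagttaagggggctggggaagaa

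The B2m matches lie 139 to 130 and 126 to 117 bases before the gene's start. The H2-K1 and H2-D1 stretches differ by the substitution A18T, the H2-K1 base first and positions counted from 1 at the 5′ end of the printed stretch. The last stretch runs from the start of Psmb9, read to the left, to the start of Tap1, read to the right. In the annotation Psmb9, Tap1, Psmb8 and Tap2 follow each other in this order. Searched on both strands in the 250 bases before the start, the interferon-stimulated response element was found in 2.98% of 32851 RefSeq windows, TTCNNNGAA in 7.02%, the NF-kappaB site in 4.11%, GAANNGAAA in 6.31% and GGGCGG in 32.7%. The last 2 motifs were added after the sequences had been seen. None of these motifs contains another, and the matches in the printed stretches do not overlap. A match describes the letters and shows neither binding nor a cause.

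The values are log2 signals after quantile normalization, which gives all arrays the same distribution and so removes any overall difference in RNA content. In sorted bulk samples, fewer cells that express a gene and less RNA per cell cannot be told apart. A probe set was called where limma's moderated test gave a Benjamini-Hochberg adjusted p under 0.05 over the 10310 probe sets tested, and ± after a difference is its standard error. Scaling mattered most in bone marrow: among all called probe sets 50.9% were higher in SP, against 72.2% without further normalization and 32.9% with median scaling, and the median difference of all probe sets moved from 0.02 to 0.31 and -0.08. For the difference between tissues the shares were 46.9%, 30.4% and 62.2%, with medians of 0.02, -0.23 and 0.13, and the median of muscle SP against bone marrow SP went from -0.11 to -0.27 without normalization. The GAPDH control, read at its 3′ and 5′ ends, checks RNA integrity and labelling. The log2 of its 3′ to 5′ ratio was 3.83 ± 0.61 (SD, n = 5) on muscle SP arrays against 2.66 ± 0.62 on muscle MP arrays, and 3.72 ± 0.60 against 2.67 ± 0.72 in bone marrow (exact two-sided permutation, adjusted p = 0.03175 and 0.03968 over 4 tests). The beta-actin ratio was higher in SP by 1.08 in muscle and 1.09 in bone marrow (exact two-sided permutation, adjusted p = 0.03174 for each). So SP arrays had the higher 3′ to 5′ ratio in both tissues, alongside every SP against MP comparison.

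The sorted groups differed in their other cell markers, which are given once here. The summed signal of 9 T and NK cell markers ranged from 3721 to 52956 on muscle SP arrays, 996 to 1301 on muscle MP, 43969 to 87592 on bone marrow SP and 4368 to 7643 on bone marrow MP. The sum is of linear signals, and in the SP groups Ccl5 dominated it. Its mean log2 signal was 13.16 in muscle SP and 15.50 in bone marrow SP. The next brightest markers there were Gzmb at 9.85 and Klrd1 at 11.98. The T cell receptor genes Cd3e and Cd3g lay at the signal floor on every muscle array. Cd3d, of the same complex, was at the floor on all muscle MP arrays but on only 2 of 5 muscle SP arrays, where it reached 8.90. Fibroblast markers (7 genes) summed to 65172 to 113142 on muscle SP and 175181 to 258771 on muscle MP arrays, and stayed at or under 3583 in bone marrow. Pan-leukocyte markers (6 genes) summed to 4230 to 22525, 5703 to 10473, 74741 to 100012 and 133477 to 159143 in the order above. Macrophage markers (7 genes) ran from 3993 to 13790, 23477 to 31582, 21142 to 65313 and 95621 to 118901. Endothelial markers (8 genes) summed to 114458 to 141326 on muscle SP arrays and 87075 to 104683 on muscle MP arrays, with no overlap, and to 5898 to 10438 and 2579 to 3378 on bone marrow SP and MP arrays, again with no overlap. B lineage markers (7 genes) summed to 1716 to 2549 and 2674 to 4436 in muscle SP and MP, and to 3170 to 5692 and 16793 to 32869 in bone marrow SP and MP. Satellite cell markers (5 genes) summed to 940 to 1565 and 4555 to 7207 in muscle SP and MP, and to at most 1262 in bone marrow. Blood stem cell markers (5 genes) summed to 12714 to 26243 and 12349 to 20583 in muscle SP and MP. In bone marrow SP and MP they summed to 15496 to 29563 and 3419 to 5119, with no overlap. The part of all these cells in the class I values was not tested.

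In muscle, an H2-D1 probe set and Psmb8 were higher in SP than in MP cells, and no member was lower. These were the only calls, which is 2 of 16 (12.5%) where 11.7% of all probe sets were called either way, 5.10% higher and 6.64% lower. So the share of called members lay near that of the array as a whole. Of the 16 probe sets, which share genes and arrays, 15 had a higher mean in SP, against 53.6% of all probe sets, and the median difference was 0.39 against 0.03.

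In bone marrow, Tap1 and Psmb8 were higher in SP cells and an H2-K1 probe set was lower. These 3 calls of 16 (18.8%) compare with 30.2% of all probe sets called either way, 15.4% higher and 14.8% lower. The members ran from -0.70 to 1.15, with a median of 0.11 against 0.02 over all probe sets.

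Between the side populations of the tissues, members were called in both directions. Tapbp, Tap2 and Psmb10 were higher in muscle SP cells, while Tap1 and an H2-K1 probe set were lower. The 4 higher and 2 lower calls (37.5%) stand beside 38.3% of all probe sets called either way, 17.1% higher and 21.2% lower. Between the main populations, Psmb10 was higher in muscle and Psmb9, H2-K1 and H2-D1 probe sets were lower, 1 and 4 calls of 16 (31.2%), against 46.5% of all probe sets either way, 20.9% higher and 25.6% lower. The member medians were -0.13 for SP and -0.31 for MP, against -0.11 and -0.14 over all probe sets. These comparisons share arrays with those of SP against MP, so they are not independent of them.

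**Figure D1:**
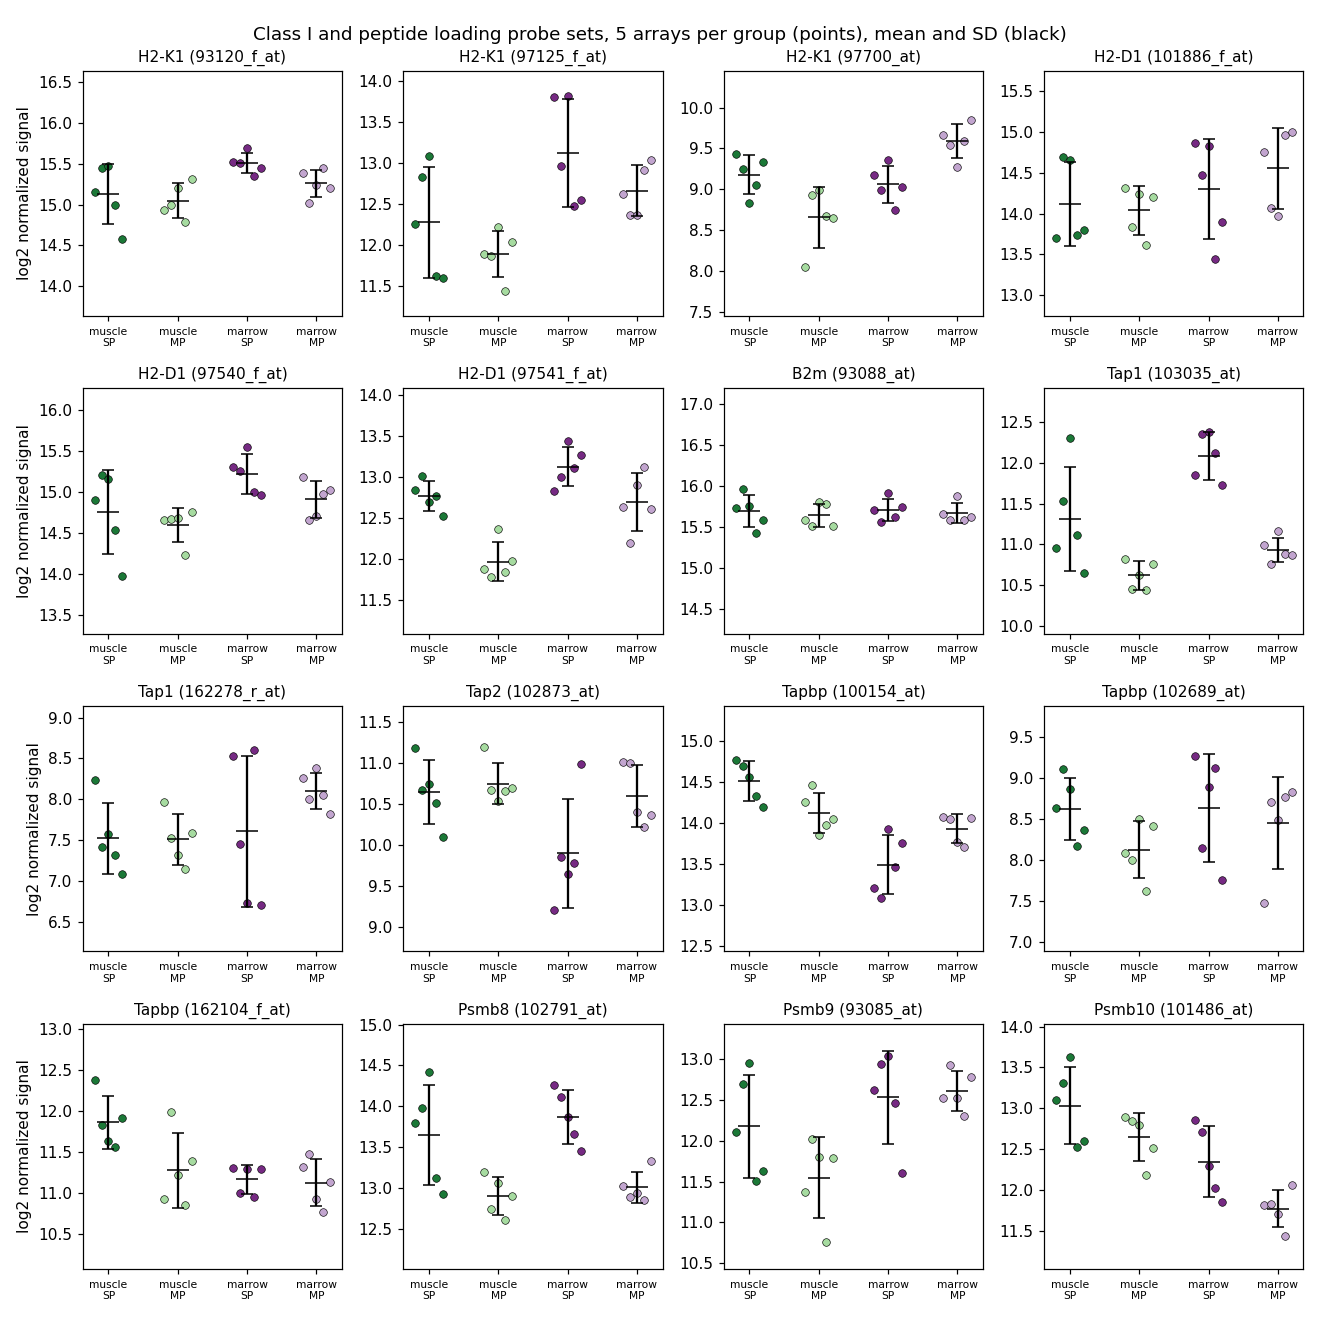
Normalized log2 signal of the 16 member probe sets on each array, 5 arrays per group, with the group mean and SD in black and a separate vertical axis for each probe set. B2m stays between 15.43 and 15.96 on all arrays, while Tap1 (103035_at) on the bone marrow SP arrays lies above every bone marrow MP array.

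The classical heavy chains bind the peptide and are the part of the complex that T cells see. H2-K1 and H2-D1 are closely related, and probe sets with an f suffix can bind RNA of related genes. Among the probe sets of these genes only 97700_at, for H2-K1, carries no such mark. The brightest heavy-chain probe set, 93120_f_at of H2-K1, had means of 15.13 in muscle SP, 15.05 in muscle MP, 15.50 in bone marrow SP and 15.26 in bone marrow MP, and was called in no comparison of the main fit. Without further normalization it was called in bone marrow SP against MP (0.55, adjusted p = 0.0303) and in muscle SP against bone marrow SP (-0.54, adjusted p = 0.0306). Median scaling called it in muscle MP against bone marrow MP (-0.56, adjusted p = 0.0161).

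H2-D1 probe set 97541_f_at gave 12.84, 13.01, 12.69, 12.76 and 12.52 on the muscle SP arrays and 11.87, 11.78, 12.36, 11.83 and 11.97 on the muscle MP arrays. Every SP array was above every MP array, by 0.80 ± 0.18 in the mean or 1.74-fold (limma, adjusted p = 0.00525), and the call held in all 33 alternatives, 13 other settings and 20 fits that each left out an array. In bone marrow the values were 12.82, 13.00, 13.43, 13.11 and 13.27 for SP and 12.63, 12.19, 12.90, 13.12 and 12.61 for MP. These groups overlapped, and the difference of 0.44 ± 0.18 did not pass (adjusted p = 0.0783), though it did without bone marrow SP 1 (adjusted p = 0.0454) or bone marrow MP 4 (adjusted p = 0.0347). With median scaling its direction turned, to -0.18 (adjusted p = 0.576). The difference between the tissues in SP against MP was 0.37 ± 0.26 (adjusted p = 0.379), so a larger difference in muscle was not shown. That test passed only with median scaling (0.84, adjusted p = 0.0498). The order of the means was bone marrow SP, muscle SP, bone marrow MP and muscle MP, of which the middle pair was not compared. Muscle SP and bone marrow SP differed by -0.36 ± 0.18 (adjusted p = 0.131), and muscle MP was lower than bone marrow MP by 1.65-fold (-0.73 ± 0.18, adjusted p = 0.00235). The other H2-D1 probe sets, 97540_f_at and 101886_f_at, differed by 0.16 ± 0.21 and 0.08 ± 0.29 between muscle SP and MP, called in none of the 33 alternatives. So the probe sets of the gene did not move alike there. In the main fit these 2 were called in no comparison. Median scaling called both lower in muscle MP than bone marrow MP (adjusted p = 0.0139 and 0.0204), and 101886_f_at lower in bone marrow SP than MP (-0.75, adjusted p = 0.0412). Probe set 97540_f_at was called lower in muscle SP than bone marrow SP without further normalization (-0.58, adjusted p = 0.0386) or without muscle SP 2 or 3.

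H2-K1 read by 97700_at was dimmer and behaved otherwise. Muscle SP arrays gave 9.43, 9.25, 8.84, 9.05 and 9.33, and muscle MP arrays gave 8.05, 8.93, 8.99, 8.67 and 8.65. Bone marrow SP arrays gave 9.17, 8.996, 9.36, 8.74 and 9.03, and bone marrow MP arrays gave 9.67, 9.54, 9.28, 9.60 and 9.85. The bone marrow MP group was the highest and lay wholly above muscle MP, with muscle 1.90-fold lower (-0.93 ± 0.19, adjusted p = 0.000281, called in all 33 alternatives). The fall from bone marrow MP to SP was -0.53 ± 0.19 (adjusted p = 0.0379), and the opposite difference in muscle, 0.52 ± 0.19, did not pass (adjusted p = 0.0773).

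SP minus MP for 97700_at, 0.52 in muscle and -0.53 in bone marrow, was tested directly between the tissues. The signed values, of similar size and opposite direction, gave a difference between tissues of 1.05 ± 0.27 (adjusted p = 0.00759). The probe set was 1 of 2 members called in that test, both higher (12.5%), where 18.5% of all probe sets were called, 8.69% higher and 9.85% lower. Without further normalization the difference fell to 0.68 (adjusted p = 0.115) and the bone marrow call was lost, at -0.10 (adjusted p = 0.729). The bone marrow call was also lost on leaving out bone marrow SP 2, 4 or 5 or bone marrow MP 1, 2, 4 or 5, with adjusted p from 0.0559 to 0.0966, and in the fit with the GAPDH ratio as a covariate (adjusted p = 0.119).

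Another H2-K1 probe set, 97125_f_at, had its highest values in bone marrow SP, 13.81, 12.96, 13.82, 12.48 and 12.55, against 12.25, 12.83, 13.08, 11.63 and 11.60 in muscle SP. The groups overlapped and muscle was 1.80-fold lower (-0.85 ± 0.30, adjusted p = 0.0316). Leaving out muscle SP 4 or 5 or bone marrow SP 1 or 3 took the adjusted p to between 0.0953 and 0.1. Muscle MP was 1.71-fold lower than bone marrow MP with no overlap (-0.77 ± 0.30, adjusted p = 0.0417), and this call was lost without muscle MP 1, 2, 4 or 5 or bone marrow MP 1, 4 or 5 (adjusted p from 0.0535 to 0.108).

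B2m, the invariant light chain that all class I heavy chains need, showed nearly the same signal in every group. Its means were 15.70 ± 0.20 (SD, n = 5) in muscle SP, 15.64 ± 0.14 in muscle MP, 15.71 ± 0.13 in bone marrow SP and 15.67 ± 0.12 in bone marrow MP. The differences between groups lay between -0.03 and 0.05, with 95% intervals of ±0.30, and no neighbours in this order differed beyond their spread. B2m ranked between 19 and 57 of 12422 on every array, and quantile normalization sets such bright ranks to nearly equal values. On the deposited values it was higher in SP by 0.48 ± 0.19 in muscle (adjusted p = 0.118) and by 0.44 ± 0.19 in bone marrow (adjusted p = 0.0763), and neither passed.

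Tap1 encodes a chain of the peptide pump and showed the largest SP against MP difference of the members in bone marrow. Its probe set 103035_at read 11.84, 12.35, 12.38, 12.12 and 11.73 on the bone marrow SP arrays and 10.99, 10.76, 11.16, 10.89 and 10.87 on the bone marrow MP arrays. All SP arrays were above all MP arrays, by 1.15 ± 0.23 or 2.22-fold (adjusted p = 0.000585), and the call held in all 33 alternatives, at 0.73 (adjusted p = 0.0258) with median scaling.

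Muscle SP arrays spread widely for Tap1, at 10.96, 11.54, 12.29, 11.11 and 10.65, against 10.82, 10.46, 10.62, 10.44 and 10.76 for muscle MP. Only muscle SP 5 lay within the MP range, and the difference of 0.69 ± 0.23 missed the threshold (adjusted p = 0.0576). It passed without muscle SP 1 (0.78, adjusted p = 0.0396) and without muscle SP 5 (0.85, adjusted p = 0.0179), and also under array weights (0.70, adjusted p = 0.0171). Over the 33 alternatives it lay between 0.44 and 0.85, with adjusted p from 0.0171 to 0.169. Muscle SP was 1.71-fold lower than bone marrow SP (-0.77 ± 0.23, adjusted p = 0.0106), a call lost with median scaling (-0.53, adjusted p = 0.101) and in the fit of those groups alone (adjusted p = 0.068). The main populations, at the bottom of the order, differed by -0.31 ± 0.23 (adjusted p = 0.288). The difference between the tissues in SP against MP was -0.46 ± 0.33 (adjusted p = 0.381), so a larger difference in bone marrow than in muscle was not shown.

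The second Tap1 probe set, 162278_r_at, had a lower mean in bone marrow SP. It read 8.53, 7.46, 6.74, 8.60 and 6.71 on SP arrays, the last of them at the floor, and 8.26, 7.9998, 8.38, 8.06 and 7.82 on MP arrays. The difference was -0.50 ± 0.32 (adjusted p = 0.269), 0.08 with the floor at the 40th percentile and -0.74 with array weights (adjusted p = 0.0399), and the SP arrays lay both above and below the MP range. The rise of Tap1 therefore rests on the brighter probe set.

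Tap2, the partner chain of the pump, did not follow Tap1. Bone marrow SP arrays gave 9.20, 9.85, 9.65, 9.78 and 10.99 and bone marrow MP arrays 11.01, 11.00, 10.40, 10.21 and 10.37. Bone marrow SP 5 was the highest SP array and the only one within the MP range, and the difference of -0.70 ± 0.27 missed the threshold (adjusted p = 0.0532), passing at -0.98 without that array (adjusted p = 0.00272) and at -1.15 with the GAPDH covariate (adjusted p = 0.0035). It also passed without muscle SP 1 or 5 or bone marrow MP 4 (adjusted p from 0.0437 to 0.0481). Muscle SP arrays gave 11.18, 10.66, 10.75, 10.51 and 10.099, 1.68-fold above bone marrow SP (0.75 ± 0.27, adjusted p = 0.0323). This call was lost without muscle SP 1, 2 or 3 or bone marrow SP 1, 2, 3 or 4 (adjusted p from 0.0546 to 0.102). Muscle SP and muscle MP, the highest groups, differed by -0.11 ± 0.27.

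**Figure D2:**
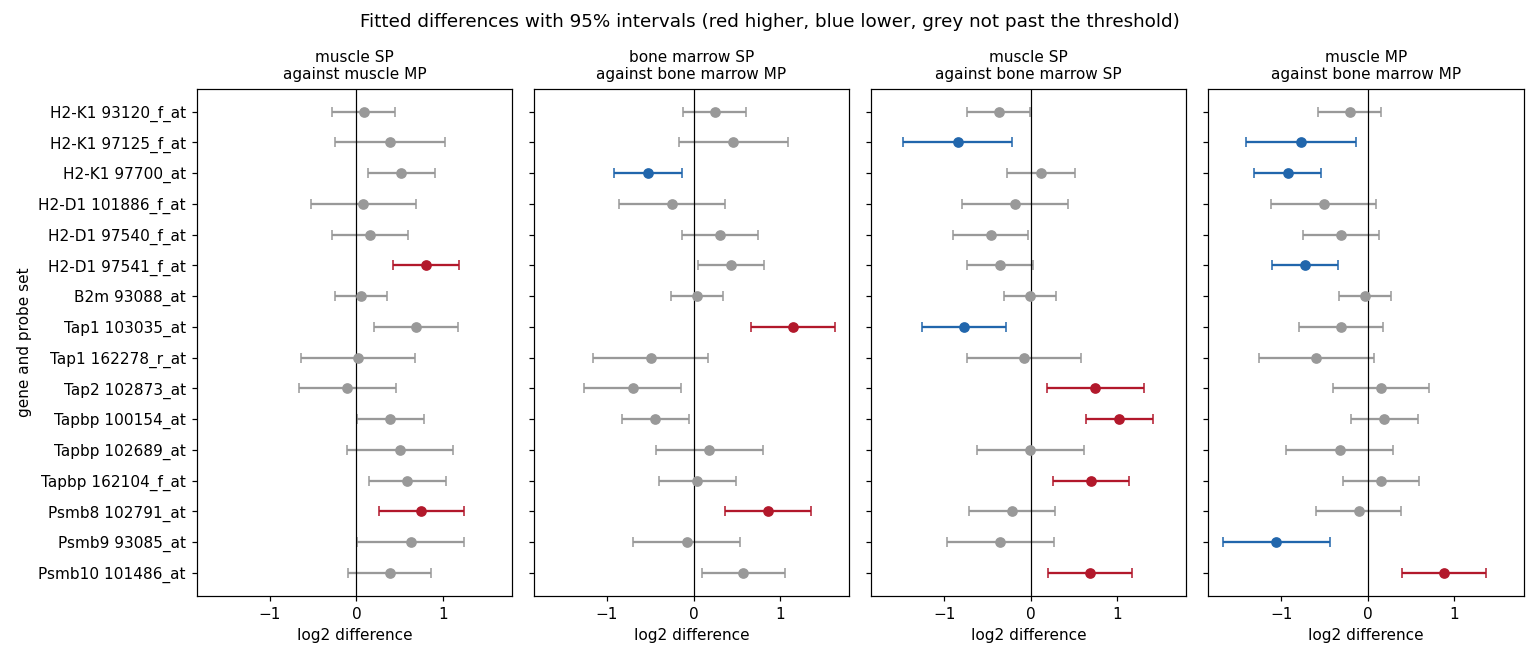
Fitted log2 differences with 95% intervals for the 16 member probe sets in 4 comparisons (5 arrays per group), red where higher and blue where lower past the threshold, grey where not. Tap1 (103035_at) and Psmb8 are red for bone marrow SP against MP, and Tapbp (100154_at) has the largest difference for muscle SP against bone marrow SP, 1.02.

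Tapasin holds an empty class I molecule at the transporter and favours the binding of tight peptides. Its brightest probe set, 100154_at, read 14.78, 14.70, 14.57, 14.33 and 14.20 on muscle SP arrays and 14.26, 14.47, 13.86, 13.98 and 14.05 on muscle MP arrays. Bone marrow SP arrays read 13.20, 13.09, 13.93, 13.47 and 13.76, and bone marrow MP arrays 14.07, 14.05, 13.77, 13.71 and 14.06. Muscle SP was the highest group and bone marrow SP the lowest, with no overlap between them.

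Muscle SP exceeded bone marrow SP 2.03-fold for this probe set (1.02 ± 0.19, adjusted p = 0.000108, called in all 33 alternatives). Probe set 162104_f_at was also higher, 1.62-fold with no overlap (0.70 ± 0.21, adjusted p = 0.012), a call lost without the 3 arrays of highest GAPDH ratio (adjusted p = 0.0914). The dim 102689_at did not differ, at -0.01 ± 0.30 (adjusted p = 0.992). Neighbours in the order of 100154_at, muscle SP over muscle MP (0.39 ± 0.19, adjusted p = 0.195), muscle MP over bone marrow MP (0.19 ± 0.19, adjusted p = 0.431) and bone marrow SP under bone marrow MP (-0.44 ± 0.19, adjusted p = 0.0779), did not pass.

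SP minus MP for Tapbp 100154_at was 0.39 in muscle and -0.44 in bone marrow, in opposite directions. These signed values differed between the tissues by 0.83 ± 0.26 (adjusted p = 0.0292). Leaving out muscle SP 2, muscle MP 3 or 4, bone marrow SP 2 or bone marrow MP 1 took the adjusted p to between 0.0535 and 0.0603. The fall in bone marrow SP passed the threshold without further normalization (-0.67, adjusted p = 0.0134) and with median scaling (-1.15, adjusted p = 0.000354), and on leaving out bone marrow SP 3 (-0.55, adjusted p = 0.0319). In bone marrow SP cells the TAP chain Tap1 was thus higher than in MP cells while the values of Tap2 and of Tapbp 100154_at were lower and missed the threshold.

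Psmb8 (LMP7) replaces the chymotrypsin-like subunit Psmb5. On muscle SP arrays it read 13.80, 13.98, 14.42, 13.13 and 12.93, and on muscle MP arrays 13.19, 12.75, 13.06, 12.61 and 12.90. Muscle SP 4 and 5 lay within the MP range and the other SP arrays above it, and the mean difference was 0.75 ± 0.24 or 1.68-fold (adjusted p = 0.0431). This call held in 17 of 33 alternatives. It was lost without muscle SP 1, 2 or 3, muscle MP 2, 3, 4 or 5, bone marrow SP 3 or bone marrow MP 1, 3 or 4 (adjusted p from 0.0502 to 0.133), and with the GAPDH covariate (adjusted p = 0.138).

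Bone marrow Psmb8 signals were 14.26, 14.11, 13.87, 13.66 and 13.45 on SP arrays and 13.02, 12.89, 12.95, 12.85 and 13.33 on MP arrays. Every SP array lay above every MP array, by 0.86 ± 0.24 or 1.82-fold (adjusted p = 0.00792). Of 33 alternatives only median scaling ended the call, at 0.16 (adjusted p = 0.629). The side populations differed by -0.22 ± 0.24 (adjusted p = 0.513) and the main populations by -0.11 ± 0.24 (adjusted p = 0.751), and the difference between tissues in SP against MP was -0.11 ± 0.34 (adjusted p = 0.869).

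Psmb9 (LMP2) takes the place of the caspase-like subunit Psmb6. Muscle MP was its lowest group, with 11.38, 12.02, 11.80, 10.76 and 11.79, wholly below bone marrow MP with 12.52, 12.93, 12.52, 12.31 and 12.77. The fold was 2.08 lower in muscle (-1.06 ± 0.30, adjusted p = 0.00572), and the call held in all 33 alternatives. Muscle SP arrays ranged from 11.51 to 12.95 and bone marrow SP arrays from 11.60 to 13.03, each overlapping both MP groups, and no other comparison passed. In bone marrow SP against MP, where Tap1 was called, Psmb9 differed by -0.08 ± 0.30 (adjusted p = 0.891).

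Psmb10 (MECL-1), the counterpart of the trypsin-like Psmb7, was the only member called higher in muscle in both populations. Muscle MP arrays gave 12.89, 12.85, 12.80, 12.19 and 12.52, all above the bone marrow MP arrays with 11.82, 11.83, 11.71, 11.44 and 12.07. The difference was 0.88 ± 0.23 or 1.84-fold (adjusted p = 0.00346), called in all 33 alternatives. Muscle SP arrays, at 13.10, 13.31, 13.63, 12.53 and 12.60, overlapped bone marrow SP arrays, at 12.86, 12.71, 12.29, 12.03 and 11.85, and exceeded them by 0.68 ± 0.23 or 1.61-fold (adjusted p = 0.023). That call was lost without muscle SP 2 or 3 or bone marrow SP 4 or 5 (adjusted p from 0.0594 to 0.076) and fell to 0.39 (adjusted p = 0.252) without the 3 arrays of highest GAPDH ratio. SP exceeded MP by 0.38 ± 0.23 in muscle and 0.58 ± 0.23 in bone marrow, neither past the threshold (adjusted p = 0.334 and 0.0657), and the bone marrow difference passed without muscle SP 3 or bone marrow SP 5 (adjusted p = 0.0498 and 0.0311). Median scaling took it to 0.04 (adjusted p = 0.924), and over the 33 alternatives it lay between 0.04 and 0.85.

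The 3 immunosubunits were also set against the constitutive subunits they replace, as log2 ratios within an array. The level of such a ratio depends on the probes, so only its differences between groups are read. The Psmb7 probe set carries an f suffix and that of Psmb5 an s suffix, so their signals may not be those of the named gene alone. The ratio pairs were added after the values had been seen, and 16 differences were computed (4 pairs in 4 comparisons), with exact two-sided permutation tests over 252 splits whose smallest p is 0.007937, adjusted over the 16. Psmb8 over Psmb5 was higher in bone marrow SP than MP by 0.65 (2.08 ± 0.24 against 1.43 ± 0.25, SD, n = 5, exact permutation, adjusted p = 0.04233), with no overlap. Psmb9 over Psmb6 was lower in muscle MP than bone marrow MP, at 0.07 ± 0.48 against 1.53 ± 0.24 (SD, n = 5), a difference of -1.46 (exact permutation, adjusted p = 0.04233). All 3 ratios had higher means in muscle SP than muscle MP, by 0.76, 0.93 and 0.75, without passing (exact permutation, adjusted p = 0.05442, 0.05442 and 0.05644).

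Psmb10 over Psmb7 differed by 0.81 between bone marrow SP and MP and by 0.71 between muscle MP and bone marrow MP (exact permutation, adjusted p = 0.05078 for each). On the deposited values no ratio passed, and the 2 immunosubunit ratios that had passed were 0.39 and -1.58 (exact permutation, adjusted p = 0.0889 and 0.05644). With each array left out in turn they passed in 6 of 20 cases each, the adjusted p running from 0.04233 to 0.06349, and the ratios themselves from 0.56 to 0.73 and from -1.57 to -1.26. Leaving out an array of a compared group raises the smallest p the test can give, and leaving out another changes only the adjustment. These losses therefore cannot tell an unstable ratio from a coarser test.

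Tap1 and Psmb9 leave the stretch of DNA printed above in opposite directions, and their ratio was chosen after its values were seen. Its 4 differences were among the 16 tested above and entered that adjustment, but their p-values are not printed. Tap1 minus Psmb9 was -0.77, -0.59, -0.65, -0.34 and 0.13 on bone marrow SP arrays and -1.53, -2.17, -1.36, -1.42 and -1.90 on bone marrow MP arrays. All SP arrays were above all MP arrays, by 1.23 in the mean. In muscle the ratio was -0.87 ± 0.33 (SD, n = 5) in SP and -0.93 ± 0.49 in MP, a difference of 0.06.

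**Figure D3:**
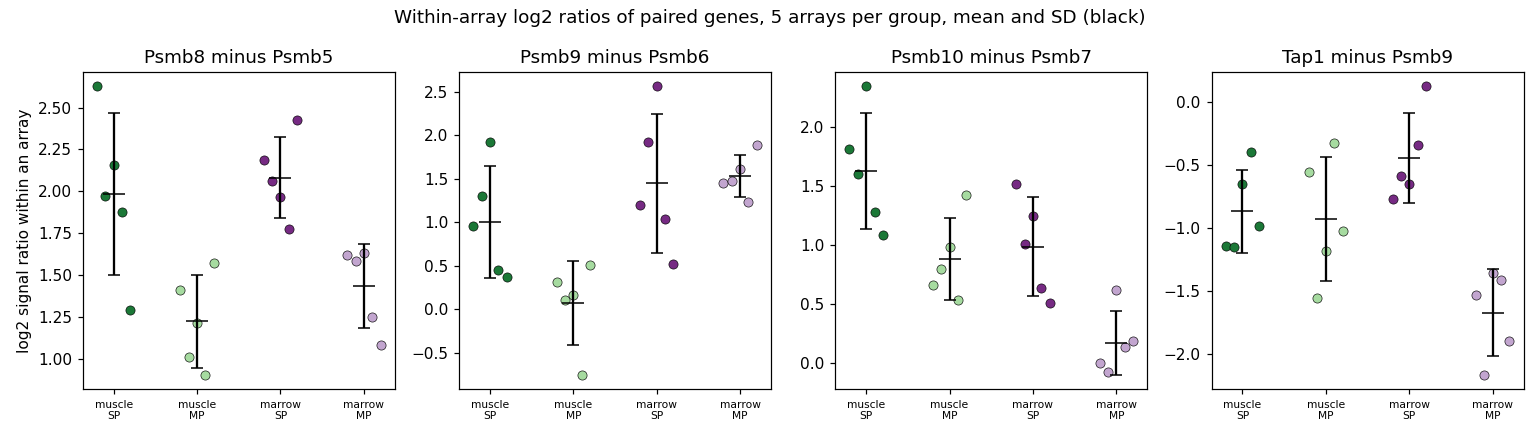
Within-array log2 ratios of Psmb8 to Psmb5, Psmb9 to Psmb6, Psmb10 to Psmb7 and Tap1 to Psmb9, 5 arrays per group as points, with mean and SD in black. Psmb8 over Psmb5 and Tap1 over Psmb9 are higher on every bone marrow SP array than on any bone marrow MP array.

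Arrays of a group tended to be high or low for several members together. Muscle SP 5 was the lowest of its group for 9 of the 16 probe sets and muscle SP 4 for 5, and neither was ever the highest. Muscle MP 4 was the lowest for 11. Bone marrow SP 3 was the highest for 9 and bone marrow SP 5 the lowest for 7, although bone marrow SP 5 was 1.09 above its group mean for Tap2. Median deviations from the group mean ran from -0.44 on muscle SP 5 to 0.29 on muscle SP 3, and reached 0.12 at most on bone marrow MP arrays.

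**Figure D4:**
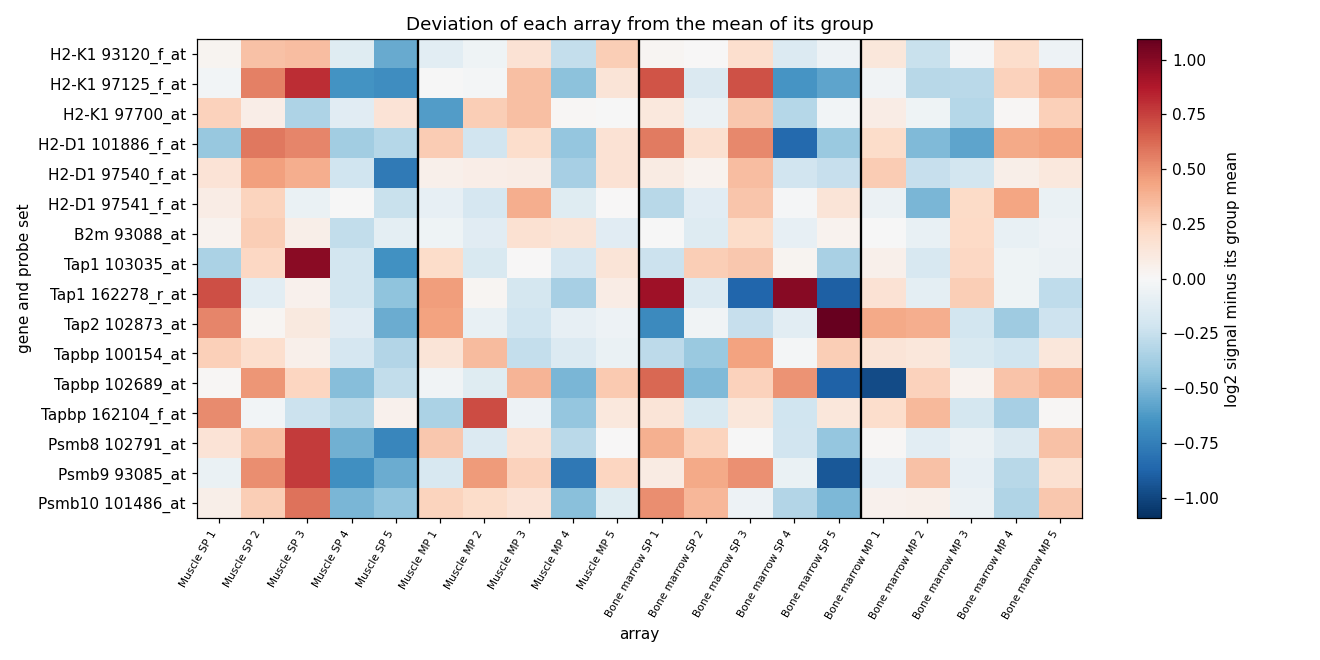
Deviation of each array (columns, 5 per group) from its group mean in log2 signal for the 16 member probe sets (rows), red above and blue below. Muscle SP 4 and 5 are below their group mean for most members, Tap1 on muscle SP 3 is 0.98 above it and Tap2 on bone marrow SP 5 is 1.09 above it.

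The constitutive core of the proteasome was read through 14 subunit genes, all tested. Between muscle SP and MP none was called, where 11.7% of all probe sets were, with a median of -0.15 (all probe sets 0.03). In bone marrow SP against MP, Psmb1 rose (0.59 ± 0.21, adjusted p = 0.0384) and Psma1 fell (-0.96 ± 0.27, adjusted p = 0.00792). Psmb1 was the only call for muscle SP against bone marrow SP (0.57 ± 0.21, adjusted p = 0.0353). In muscle MP against bone marrow MP, Psmb1 (1.22 ± 0.21, adjusted p = 4.39e-05) and Psma5 (0.76 ± 0.23, adjusted p = 0.00908) were higher and Psma1 was lower (adjusted p = 0.00345). In these comparisons 30.2%, 38.3% and 46.5% of all probe sets were called. The medians of the 14 in them were 0.05, -0.02 and 0.11, against 0.02, -0.11 and -0.14 over all probe sets. Psmb5, Psmb6 and Psmb7 were called in none of them.

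For the calls in this paragraph, the shares of all probe sets called were 11.7% and 30.2% for SP against MP in muscle and bone marrow. Between tissues they were 38.3% for SP and 46.5% for MP. Of 5 genes for proteasome activators and assembly, Pomp, which helps to build new 20S particles, was lower in SP cells of muscle (-0.81 ± 0.22, adjusted p = 0.0164) and of bone marrow (2.14-fold, adjusted p = 0.000505). Psme1, a chain of the PA28 cap that is induced by interferon, was 1.82-fold higher in bone marrow SP (0.87 ± 0.27, adjusted p = 0.0169). Psmg1, an assembly chaperone, was higher there too (0.74 ± 0.24, adjusted p = 0.0205), and Psme4, the PA200 activator, was lower (-0.92 ± 0.30, adjusted p = 0.0223). Psme3 of the nuclear PA28 gamma cap was the only call between tissues, lower in muscle for SP (-1.67 ± 0.30, adjusted p = 8.78e-05) and MP (-1.77 ± 0.30, adjusted p = 3.25e-05). Among 5 tested genes of folding, trimming and loading, Hspa5, the chaperone BiP, was the single call (bone marrow SP against MP, 0.79 ± 0.27, adjusted p = 0.0326), and calnexin (Canx) differed there by -0.03 ± 0.20.

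The other class I and class I-like chains include H2-Q, H2-M and Cd1d genes, Hfe and Fcgrt. The probe sets of H2-K2, H2-Q1, H2-Q4, H2-Q5 and H2-Bl carry an f suffix and that of H2-Q10 an s suffix. Their signals, among them the H2-Q10 values below, may therefore not be those of the named gene alone. Of 16 tested, 1 was higher in muscle SP than MP (H2-M2, 0.77 ± 0.25, adjusted p = 0.0435), where 11.7% of all probe sets were called. In bone marrow SP against MP, where 30.2% of all probe sets were called, H2-M3 rose (0.53 ± 0.19, adjusted p = 0.0409). H2-Q10, a secreted class I chain, fell there 4.71-fold (-2.23 ± 0.29, adjusted p = 4.77e-06). Between the side populations 3 were higher in muscle and 3 lower, where 38.3% of all probe sets were called. Hfe, which senses iron, was 8.36-fold higher (3.06 ± 0.28, adjusted p = 5.53e-09), and Fcgrt, the neonatal Fc receptor chain, was 3.41-fold higher (1.77 ± 0.19, adjusted p = 5.69e-08). H2-Q10 was 3.14-fold lower and Cd1d1, which presents lipids, was 3.00-fold lower (adjusted p = 8.95e-05 and 6.15e-06). Between the main populations 3 were higher and 7 lower, where 46.5% of all probe sets were called, with Hfe 8.13-fold and Fcgrt 3.44-fold higher, and H2-Q10 12.8-fold and Cd1d2 3.13-fold lower (adjusted p = 4.33e-09, 3.24e-08, 4.46e-10 and 0.000959). Hfe lay at the floor on 1 bone marrow MP array. The medians of the 16 were 0.15, 0.06, -0.26 and -0.71 in the order of these comparisons, against 0.03, 0.02, -0.11 and -0.14 over all probe sets.

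Genes that signal for interferon or regulate class I came to 20 tested. In muscle SP against MP 5 were higher and 0 lower, where 11.7% of all probe sets were called either way. The gene of interferon gamma itself, Ifng, lay at the floor on all muscle MP arrays and averaged 9.20 on muscle SP arrays, at least 5.63-fold higher (adjusted p = 9.05e-05). Irf8 (0.98 ± 0.28, adjusted p = 0.0243), Creb1 (0.70 ± 0.20, adjusted p = 0.0259, 1 muscle MP array at the floor) and the kinase Jak2 (0.68 ± 0.18, adjusted p = 0.0163) followed. The transcription factor Irf1, outside the rule of the 4 largest and named after its values were seen, was 0.64 ± 0.19 higher (adjusted p = 0.0321).

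In bone marrow SP against MP 4 of the 20 were higher and 3 lower, where 30.2% of all probe sets were called either way. Ifng averaged 13.05 ± 0.77 (SD, n = 5) on SP arrays and 7.39 ± 0.74 on MP arrays, of which 1 was at the floor, and was 50.6-fold higher (adjusted p = 2.39e-10). Jak2 rose by 0.82 ± 0.18 (adjusted p = 0.00134), while the receptor chain Ifngr2 (-0.99 ± 0.32, adjusted p = 0.0232, 2 SP arrays at the floor) and Socs1, an inhibitor of the pathway, (-0.92 ± 0.23, adjusted p = 0.00422) fell. The others, named outside the rule, were Rela and Nfya (higher) and Irf9 (lower). On the same bone marrow SP arrays the T and NK cell markers summed to at least 43969, a sum dominated by Ccl5, against at most 7643 on MP arrays.

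Of all probe sets 38.3% were called between the side populations and 46.5% between the main populations. Muscle SP against bone marrow SP gave 2 higher and 4 lower. Ifng was 14.4-fold lower in muscle SP (-3.85 ± 0.37, adjusted p = 1.64e-08), Nfya 3.02-fold lower (adjusted p = 2e-07) and Irf8 2.43-fold lower (adjusted p = 0.000844). Ifngr1 was lower by 2.09-fold (adjusted p = 0.000301), and Irf1 and Irf9, outside the rule, were higher by 0.87 ± 0.19 and 0.87 ± 0.18. Muscle MP against bone marrow MP gave 1 higher, Irf1 (0.70 ± 0.19, adjusted p = 0.00418), and 10 lower, led by Irf8 (5.84-fold, adjusted p = 8.73e-08), Ifngr2 (at the floor on all muscle arrays, at least 3.01-fold, adjusted p = 0.000274), Creb1 (2.05-fold, adjusted p = 0.000198) and Socs1 (2.01-fold, adjusted p = 0.0011). Irf1 was thus highest in muscle SP, at 14.77 ± 0.27 (SD, n = 5), then muscle MP at 14.13 ± 0.27, bone marrow SP at 13.90 ± 0.28 and bone marrow MP at 13.43 ± 0.28.

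The SP against MP difference itself differed between tissues for 5 of the 20, where 18.5% of all probe sets were called in that test. The signed value, SP minus MP in muscle less that in bone marrow, was above 0 for 4 of them: Irf8 (1.27 ± 0.40, adjusted p = 0.0289), Creb1 (1.103 ± 0.29, adjusted p = 0.00909), Socs1 (1.00 ± 0.33, adjusted p = 0.0382) and Irf9 (0.98 ± 0.25, adjusted p = 0.00849). For Socs1 the SP and MP means were 9.11 and 9.04 in muscle and 9.12 and 10.05 in bone marrow, so the larger difference was the fall in bone marrow. Ifng was the call in the other direction, and its size has no measured value because muscle MP was at the floor. The medians of the 20 were 0.27, 0.02, -0.23 and -0.67 in the 4 comparisons, in the order given, against 0.03, 0.02, -0.11 and -0.14 over all probe sets.

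Receptors on NK and T cells bind class I from the other side. Of 10 tested, 3 were higher in muscle SP than MP and 0 lower, where 11.7% of all probe sets were called, 5.10% higher. Klrd1, at the floor on all muscle MP arrays, was at least 5.55-fold higher (adjusted p = 0.000199). Klra5 was 1.85-fold higher (adjusted p = 0.00234), and Klra7 was called higher (adjusted p = 0.00465), with a mean of 8.56 on SP arrays and 4 of 5 MP arrays at the floor, so that its fitted fold of 3.42 is limited by the floor. In bone marrow SP against MP 8 were higher and 1 lower, where 30.2% of all probe sets were called, 15.4% higher. Klrd1 was 6.05-fold, Klrk1 5.35-fold, Klra3 5.20-fold and Klra7 4.91-fold higher (adjusted p = 2.91e-05, 2.28e-05, 0.000812 and 0.000127; 1 MP array was at the floor for Klrk1), and Klra2, at the floor on all SP arrays, was at least 2.04-fold lower (adjusted p = 8.32e-05). Muscle SP was lower than bone marrow SP for 8 of the 10 and muscle MP lower than bone marrow MP for 5, with none higher. Of all probe sets 38.3% and 46.5% were called in these comparisons, 21.2% and 25.6% lower. Klrd1 is also among the T and NK cell markers, and the Klra genes form a family of near copies whose probe sets can bind RNA of each other.

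For 3 members the genes with the most similar pattern over the 20 arrays were found by the root mean square difference of centred log2 values, among 7294 genes. For Tap1 they were Supt6 (0.257), Gtf2f1 (0.286) and Polr2a (0.314), where the median gene stood at 0.821. Psmb8 was nearest to Zfyve19 (0.220), Jak3 (0.253) and Eif2b4 (0.256), with a median of 0.762. B2m, being flat, was nearest to other genes with little change, Tsc22d3 (0.162), Clcn1 (0.166) and C4bp (0.166), with a median of 0.565. None of these neighbours was another of the 10 genes.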

How the data were processed

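Signal intensity values, linear and per probe set and array, had been deposited by the authors, each array scaled to a 2%-trimmed mean of 1501. Software, background correction and probe summary were not given in the sources used here. Of 12488 probe sets 66 were controls. Symbols came from the platform's annotation table (10833 probe sets with 1 symbol, 396 with several, 1193 with none). The arrays were quantile normalized, values under the 25th percentile (105 signal, log2 6.71) were set to it, and probe sets above it on at least 5 arrays were kept (10310). The log2 values of these normalized and floored signals were fitted with limma 3.58.1 in R 4.3.3, all 4 groups together, two-sided, with Benjamini-Hochberg adjustment and a threshold of 0.05. The fit was tested on simulated data. Python 3.11.15, scipy 1.17.1 and matplotlib 3.10.9 served for permutation tests and figures.

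The members and lists were chosen with earlier results of these data known. All members were named, and from each other list up to 4 genes of largest difference among those called. Alternatives were other normalizations, floors (10th and 40th percentile, or a pseudocount of 100) and filters, limma's robust and trend settings, weighted arrays, fits restricted to the compared groups, a replicate block, a GAPDH covariate and omitted arrays. Promoter windows were RefSeq's for GRCm38.p6; that assembly otherwise served for names and neighbours only.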

Additional observations from a re-analysis of the deposited data

Results flagged for a closer look

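Among 64 groups of 5 arrays (16 probe sets in 4 groups), 4 held an array far from the others, its gap to the nearest array being more than 0.71 of the group's range. Chance gives such a gap in about 1 in 20 groups. H2-D1 97540_f_at was at 14.23 on muscle MP 4, with the next array at 14.65. B2m was at 15.88 on bone marrow MP 3, the next at 15.66. Tap2 was at 11.19 on muscle MP 1, the next at 10.69. Tapbp 102689_at was at 7.47 on bone marrow MP 1, the next at 8.49. For 2 probe sets the difference between SP and MP itself differed between the tissues by the interaction term of the limma fit: H2-K1 97700_at by 1.05 and Tapbp 100154_at by 0.83.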

How the results depend on the processing

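Counts of called members, given as higher or lower, depended on the processing as follows. Muscle SP against muscle MP had 2 higher, and 1 with the floor at the 10th percentile, no filter, only the groups compared or the GAPDH ratio as a covariate, and 1 to 3 with an array left out. Tap1 103035_at was added, making 3, with the floor at the 40th percentile, the filter at the median or array weights. Bone marrow SP against MP had 2 higher (1 with median scaling, 2 to 3 with an array left out) and 1 lower, which became 4 with median scaling, 0 with the floor at the 10th percentile, 2 with the floor at the 40th percentile, the filter at the median, array weights or the GAPDH covariate, and 0 to 2 with an array left out. H2-K1 93120_f_at was added to the higher calls without further normalization. Psmb10 was added to them with array weights or without the arrays of highest GAPDH ratio. Muscle SP against bone marrow SP had 4 higher, 2 in the fit of only those groups or without the arrays of highest GAPDH ratio, 3 without further normalization, with no filter or with array weights, and 2 to 4 with an array left out. Its 2 lower became 4 without further normalization, 0 with median scaling or only the groups compared, 1 with no filter and 1 to 3 with an array left out. Muscle MP against bone marrow MP had 4 lower, 7 with median scaling, 3 with the floor at the 10th percentile or no filter, and 3 to 4 with an array left out. Tap1 162278_r_at was added to these with array weights or only the groups compared. The difference between tissues had 2 higher, 1 without further normalization and 1 to 2 with an array left out. Median scaling added H2-D1 97541_f_at. No called member changed direction under any alternative.

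With the replicate number as a block, the lower call in bone marrow SP against MP went from 1 to 0 (H2-K1 97700_at, adjusted p = 0.0501). The higher calls in muscle and in bone marrow SP against MP each went from 2 to 3, adding Tap1 103035_at in muscle (adjusted p = 0.0381) and Psmb10 in bone marrow (adjusted p = 0.0255), and no other count of called members changed. The labels do not say that a number marks shared animals or sorts. Residuals of same-numbered arrays correlated between -0.141 and 0.296 (median 0.0824, 30 pairs). Those of differently numbered arrays correlated between -0.369 and 0.332 (median -0.023, 120 pairs), a lower median in an overlapping range. As no label gives a pairing, the numbers were not taken as pairs in the main fit, and whether they mark one was not settled. The number of arrays limits the precision: the 95% intervals of the members were ±0.30 to ±0.661 in the comparisons of groups. For the difference between tissues they were ±0.425 to ±0.935. All of the above holds for these alternatives only, and the causes were not tested.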
